A study of Mus musculus with 8 samples.

Results

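The heat shock chaperones described here are 10 genes grouped by function: Hspa1a, Hspa1b, Hspa8, Hsp90aa1, Hsp90ab1, Dnajb1, Hsph1, Hspb1, Hspd1 and Hspe1. They are 10 of the 30153 gene rows of the table, and all 10 were among the 11796 genes with a mean of at least 1 TPM that were tested. TPM is a length-normalised relative abundance. Kidney RNA came from 4 aged and 4 adult C57/BL6 mice, 1 library per animal. The human gene for angiotensin receptor type 1, in its Haplotype-II form, was present in all of them and all were on western diet, so that no group lacks the transgene or the diet. The labels give neither the ages nor the promoter of the transgene. The comparison addresses how age changes the kidney transcriptome of these mice.

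Chaperones hold unfolded proteins and help them fold. HSP70 proteins bind exposed stretches of a client, J-domain proteins deliver clients and stimulate ATP hydrolysis, nucleotide exchange factors release the client, and HSP90 acts later on kinases and steroid receptors. Small heat shock proteins hold clients without ATP, and the HSP60 and HSP10 chaperonin folds proteins imported into mitochondria. Under proteotoxic stress heat shock factor 1 (HSF1) binds heat shock elements, inverted repeats of the unit GAA, and raises transcription of the inducible members. In the kidney these proteins are known from work on ischemia and on osmotic stress in the medulla.

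The sequences before the gene starts are shown because heat shock factors bind there. Windows of 250 bases before a gene's start came from RefSeq on GRCm38.p6, and the table used here covered 7 of the 10 genes. Each sequence is 5′ to 3′ on the gene's own strand and ends at the base before the start, and capitals mark paired units of the form GAANNTTC or TTCNNGAA. The windows are chr17:34972157-34972406 (minus strand) for Hspa1a, chr17:34959239-34959488 (minus) for Hspa1b, chr5:135887669-135887918 (plus) for Hspb1, chr5:149636316-149636565 (minus) for Hsph1 and chr1:55087898-55088147 (plus) for Hspe1.
Hspa1a: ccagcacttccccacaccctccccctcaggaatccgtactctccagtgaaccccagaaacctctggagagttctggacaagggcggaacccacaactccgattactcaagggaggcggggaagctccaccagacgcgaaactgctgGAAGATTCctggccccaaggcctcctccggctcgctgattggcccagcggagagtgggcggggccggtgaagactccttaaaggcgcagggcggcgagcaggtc
Hspa1b: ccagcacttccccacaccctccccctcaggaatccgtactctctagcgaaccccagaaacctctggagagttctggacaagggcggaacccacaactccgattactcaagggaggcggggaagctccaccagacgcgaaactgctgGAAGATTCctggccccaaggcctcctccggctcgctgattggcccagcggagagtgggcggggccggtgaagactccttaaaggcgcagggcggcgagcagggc
Hspb1: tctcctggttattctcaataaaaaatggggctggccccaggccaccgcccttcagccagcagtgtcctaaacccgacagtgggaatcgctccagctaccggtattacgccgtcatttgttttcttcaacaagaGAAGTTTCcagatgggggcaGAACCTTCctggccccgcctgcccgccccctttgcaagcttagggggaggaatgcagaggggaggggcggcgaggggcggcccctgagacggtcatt
Hsph1: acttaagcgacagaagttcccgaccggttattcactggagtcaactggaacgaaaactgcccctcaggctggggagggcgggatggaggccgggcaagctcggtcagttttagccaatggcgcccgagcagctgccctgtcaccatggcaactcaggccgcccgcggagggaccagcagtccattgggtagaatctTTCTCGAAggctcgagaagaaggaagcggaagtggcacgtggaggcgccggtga
Hspe1: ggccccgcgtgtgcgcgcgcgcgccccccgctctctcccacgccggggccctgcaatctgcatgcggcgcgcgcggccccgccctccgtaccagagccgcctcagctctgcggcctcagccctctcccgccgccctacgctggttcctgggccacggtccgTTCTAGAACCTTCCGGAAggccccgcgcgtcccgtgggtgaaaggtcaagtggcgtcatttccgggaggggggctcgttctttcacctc

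Both forms of the pair read the same on either strand. At least 1 pair stood in 7 of the 10 windows of these 7 genes, and in 4218 of all 32851 windows of the table (12.8%). Counted by gene, 6 of the 7 had a pair, Dnajb1 being the exception. Some of these windows share sequence, as given below, so they are not separate cases. Hspb1 had 2 separate pairs, 117 to 110 and 97 to 90 bases before its start. Windows with 2 or more pairs numbered 478 (1.46%). Hspe1 had a run of 3 overlapping pairs between 89 and 72 bases before its start, which contains 2 overlapping stretches of 3 alternating units each. At least 1 stretch of 3 such units occurred in 153 windows (0.47%). Hspd1 and Hspe1 lie head to head on chromosome 1, and one of the RefSeq starts of Hspd1 is 216 bases from that of Hspe1. The windows of these starts overlap by 215 bases, so the run before Hspd1 is the same stretch read on the other strand. The window before the other Hspd1 start, at 55088243, does not overlap that of Hspe1 and held no pair. The windows of Hspa1a and Hspa1b differed at 3 positions, C44T, T47C and T249G (Hspa1a base, position from the 5′ end, Hspa1b base), and were 98.8% identical, with the same pair 104 to 97 bases before the start. A match is a run of letters, and binding was not measured here.

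**Figure D1:**
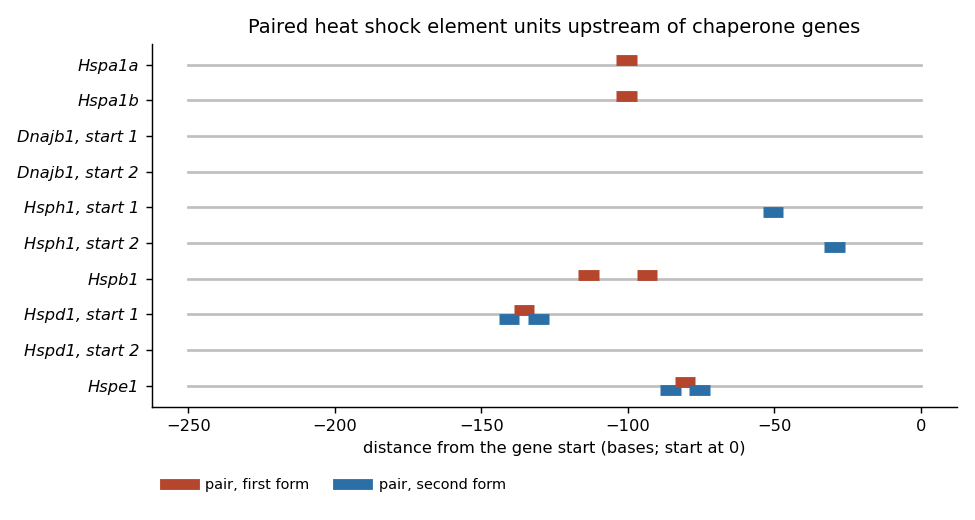
Paired heat shock element units in the 250 bases before each gene start (10 RefSeq windows of 7 genes), by distance from the start in bases. The first form is GAANNTTC and the second TTCNNGAA. Hspd1 (first start) and Hspe1 carry 3 overlapping pairs, Hspb1 2 separate ones, and both Dnajb1 windows none.

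No heat shock chaperone passed the test between aged and adult kidneys, and their levels differed widely from gene to gene. Of the 10 genes 0 had a limma adjusted p under 0.05, against 0% of the 11796 genes tested, and for each the adjusted p was 1.00. The aged and adult libraries overlapped for all 10. An unadjusted p under 0.05 was found for 1 of the 10 (Hsph1), against 3.39% of all genes. Every aged library lay above every adult one for 0 of the 10, against 0.348% of all genes. The reverse, every aged library below every adult one, held for 0 of the 10, against 249 of the 11796 genes. Log2 fold changes of TPM + 1 were positive for 7 of the 10, against 35% of all genes, with a median of 0.06 beside −0.11 for all genes. That split moves with the scaling. It was 8 of 10 positive (47.3% of all genes) with size factors, 9 of 10 (51.2%) with quantile normalization and 10 of 10 (69.6%) with mitochondrially encoded genes removed.

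In level the order over the 8 libraries was Hspa8, Hspe1, Hsp90ab1, Hspd1, Hsp90aa1, Hsph1, Hspb1, Dnajb1, Hspa1b and Hspa1a. Mean TPM was 906 for Hspa8, 594 for Hspe1, 305 for Hsp90ab1, 170 for Hspd1 and 111 for Hsp90aa1. The other 5 averaged 10.6 (Hsph1), 10.5 (Hspb1), 9.86 (Dnajb1), 4.82 (Hspa1b) and 1.62 TPM (Hspa1a). Neighbours in this order kept it in 6 to 8 of the 8 libraries, except Hsph1 and Hspb1, where Hsph1 was the higher in 2 libraries. Hspa8 ranked 115 and Hspa1a 10701 by mean TPM among the 11796 genes. The 10 genes together held between 1840 and 2425 TPM, 2140 ± 262 TPM in aged and 2105 ± 259 TPM in adult kidneys (SD, n = 4 each). Hspa8 alone made up between 36.0% and 48.3% of that sum.

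**Figure D2:**
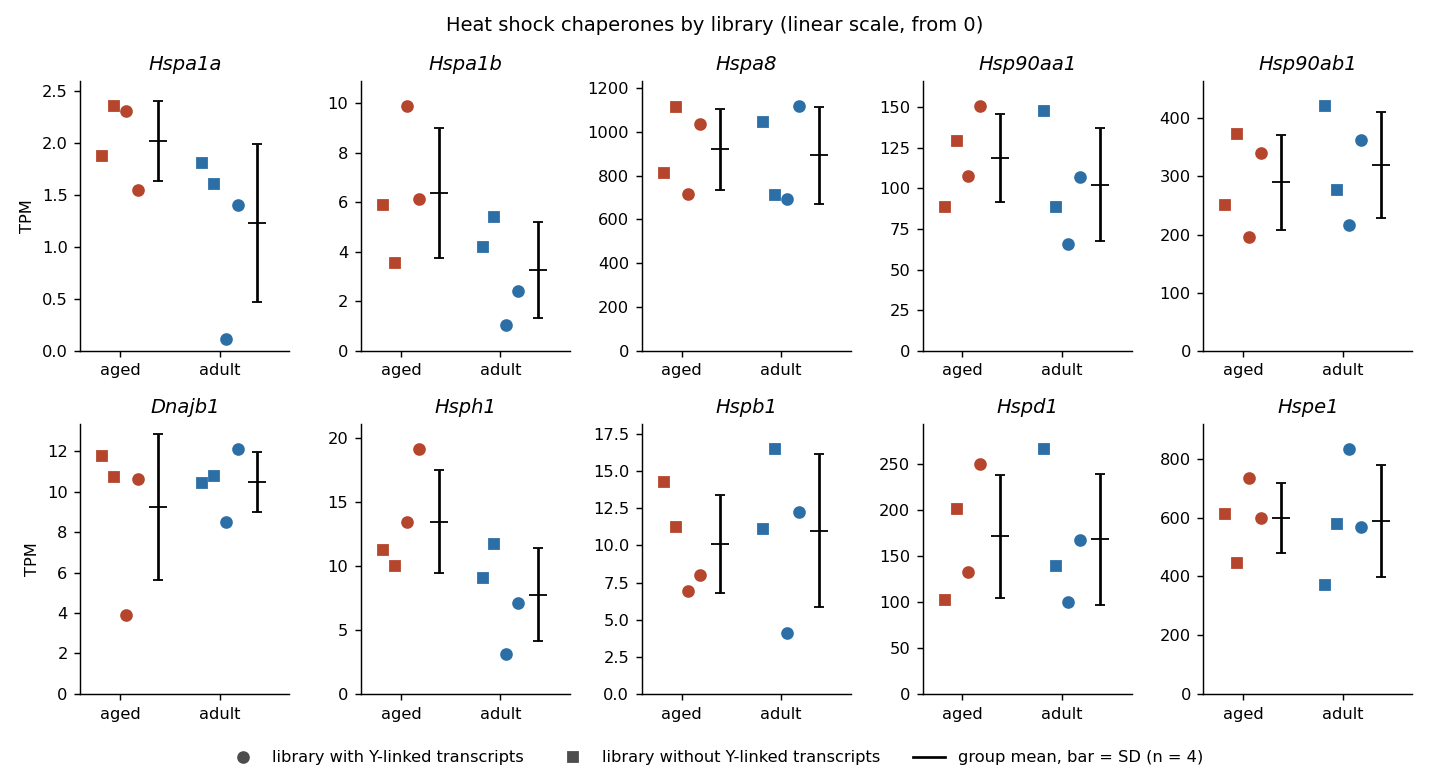
TPM of each chaperone gene in the 4 aged and 4 adult libraries (linear axes from 0, replicates 1 to 4 from left to right; horizontal line and bar, mean and SD). Circles are libraries with and squares libraries without Y-linked transcripts. The groups overlap in every panel, and adult replicate 3 has the lowest value of Hspa1a, Hspa1b, Hspa8, Hsp90aa1, Hsph1, Hspb1 and Hspd1.

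Facts of the libraries bear on every value below. Genes at or above 1 TPM numbered 10663 to 12037 in aged and 10681 to 12293 in adult libraries, and TPM keeps no read depth. Y-linked transcripts (Ddx3y, Kdm5d, Eif2s3y and Uty) summed to between 34.7 and 50.6 TPM in replicates 3 and 4 of both groups and to between 0.485 and 2.30 TPM in replicates 1 and 2. The labels do not name this split. The 13 mitochondrially encoded protein genes took 26.8% to 46.9% of the TPM scale in aged and 19.6% to 26.1% in adult libraries. All 9 kidney markers were detected, with a sum of 602 to 3118 TPM in aged and 708 to 3424 TPM in adult libraries. Of the adrenal cortex markers Cyp11b1 and Cyp11b2 were at 0, and the 5 summed to at most 1.90 TPM in aged and 1.12 TPM in adult libraries. Hemoglobin transcripts summed to 931 to 14650 TPM in aged and 2698 to 10638 TPM in adult libraries. The 5 endothelial markers summed to 103 to 142 TPM in aged and 64.0 to 137 TPM in adult libraries, and the 8 leukocyte markers to 10.8 to 19.3 and 14.2 to 29.4 TPM. In such bulk tissue, fewer cells of a type and less RNA per cell cannot be told apart.

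The stress-inducible HSP70 genes had the lowest levels of the set and the widest spread. Hspa1a (ENSMUSG00000091971) and Hspa1b (ENSMUSG00000090877) are single-exon genes on the minus strand of chromosome 17, at 34969190 to 34972156 and 34956436 to 34959238 on GRCm38, and encode nearly the same protein. Hspa1b had 5.90, 3.54, 9.91 and 6.13 TPM in aged kidneys, against 4.20, 5.42, 1.05 and 2.41 TPM in adult kidneys. Aged replicate 3 was the highest and adult replicate 3 the lowest, and aged replicate 2 lay below adult replicates 1 and 2. The means were 6.37 ± 2.63 TPM in aged and 3.27 ± 1.93 TPM in adult kidneys (SD, n = 4 each), a log2 fold change of 0.85 (SE 0.40, 95% interval −0.02 to 1.71, limma adjusted p = 1.00). Hspa1a had 1.87, 2.36, 2.31 and 1.55 TPM in aged kidneys, against 1.80, 1.60, 0.112 and 1.40 TPM in adult kidneys. The overlap rests on aged replicate 4, which lay below adult replicates 1 and 2, while adult replicate 3 was again far below the others. Its log2 fold change was 0.52 (SE 0.33, 95% interval −0.20 to 1.23, limma adjusted p = 1.00).

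The genes share 1873 words of 31 bases, 63.8% of those of Hspa1a and 67.6% of those of Hspa1b, so the division of reads between them is uncertain. Their sum was 7.77, 5.90, 12.2 and 7.67 TPM in aged kidneys, against 6.003, 7.01, 1.16 and 3.81 TPM in adult kidneys. Only aged replicate 2 lay within the adult range. The log2 fold change of the sum was 0.89 (SE 0.41, 95% interval 0.00129 to 1.78, limma adjusted p = 1.00). Without adult replicate 3 the log2 fold change fell to 0.54 for Hspa1b and 0.21 for Hspa1a. Hspa1b made up between 60.0% and 90.4% of the sum.

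Hspa8, the constitutive cytosolic HSP70 that also strips clathrin from vesicles, was the most abundant member and varied least. It lies on chromosome 9 at 40800984 to 40810087 (ENSMUSG00000015656, plus strand). It had 814, 1111, 715 and 1038 TPM in aged kidneys, against 1047, 711, 695 and 1120 TPM in adult kidneys. High and low libraries occurred equally in both groups, and the highest was 1.61 times the lowest, against 21.1 times for Hspa1a and 9.44 times for Hspa1b. The means were 920 ± 186 TPM in aged and 893 ± 222 TPM in adult kidneys (SD, n = 4 each), a log2 fold change of 0.05 (SE 0.25, 95% interval −0.49 to 0.60). Hspa8 was between 58.5 and 598 times as abundant as the inducible pair. Of its 31-base words 43.5% occur in other genes, and its processed pseudogenes with a row had at most 1.21 TPM.

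The cytosolic HSP90 genes were abundant in every library, and neither passed the test (limma adjusted p = 1.00 for both). Hsp90ab1 (ENSMUSG00000023944, chromosome 17 at 45567775 to 45573271, minus strand) encodes the constitutive HSP90β. It had 251, 374, 195 and 340 TPM in aged kidneys, against 422, 276, 216 and 363 TPM in adult kidneys, and its log2 fold change was −0.14 (SE 0.29, 95% interval −0.77 to 0.49). Hsp90aa1 (ENSMUSG00000021270, chromosome 12 at 110690605 to 110702728, minus strand) encodes the more inducible HSP90α. It had 88.3, 129, 107 and 151 TPM in aged kidneys, against 148, 88.7, 65.6 and 107 TPM in adult kidneys, and its log2 fold change was 0.25 (SE 0.29, 95% interval −0.38 to 0.88). Leaving out adult replicate 3 gave 0.06, and leaving out adult replicate 1 gave 0.44. Both genes had their lowest value in replicate 3 of one or the other group, aged for Hsp90ab1 and adult for Hsp90aa1. Hsp90ab1 exceeded Hsp90aa1 in all 8 libraries. The ratio of β to α was 2.84, 2.90, 1.82 and 2.25 in aged libraries, against 2.86, 3.11, 3.29 and 3.39 in adult libraries. The ranges overlapped only through aged replicate 2 and adult replicate 1. The means of the ratio were 2.45 ± 0.515 in aged and 3.16 ± 0.234 in adult kidneys (SD, n = 4 each). The gap lay mainly in replicates 3 and 4, the libraries with Y-linked transcripts. In replicates 1 and 2 the ratio was 2.84 and 2.90 in aged, against 2.86 and 3.11 in adult libraries. The sign for Hsp90ab1 was positive with quantile normalization (0.17) and with mitochondrially encoded genes removed (0.16).

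Of the partners of HSP70, Hsph1 had the smallest unadjusted p of the set and Dnajb1 had 1 library far from the rest. Hsph1 (ENSMUSG00000029657, chromosome 5 at 149614287 to 149636376, minus strand) encodes HSP110, a nucleotide exchange factor and disaggregase partner. It had 11.3, 10, 13.4 and 19.1 TPM in aged kidneys, against 9.09, 11.7, 3.13 and 7.07 TPM in adult kidneys. Adult replicate 2 lay above aged replicates 1 and 2, which were the only overlap. The means were 13.5 ± 4.05 TPM in aged and 7.76 ± 3.63 TPM in adult kidneys (SD, n = 4 each), a log2 fold change of 0.80 (SE 0.36, limma unadjusted p = 0.0491, adjusted p = 1.00). It fell to 0.48 without adult replicate 3. Dnajb1 (ENSMUSG00000005483, chromosome 8 at 83608193 to 83612653, plus strand) encodes HSP40, the J-domain partner of inducible HSP70. It had 11.8, 10.7, 3.90 and 10.6 TPM in aged kidneys, against 10.4, 10.8, 8.51 and 12.1 TPM in adult kidneys. Aged replicate 3, the library with the highest Hspa1b, had the lowest Dnajb1. The log2 fold change was −0.24 (SE 0.33, 95% interval −0.97 to 0.48), and 0.08 without that library.

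Hspb1 encodes HSP25 (HSP27 in human), an actin-stabilising small heat shock protein, and lies on chromosome 5 at 135887919 to 135889563 (ENSMUSG00000004951, plus strand). It had 14.3, 11.2, 6.92 and 8.00 TPM in aged kidneys, against 11.1, 16.5, 4.09 and 12.3 TPM in adult kidneys. Low and high values occurred in both groups, and the log2 fold change was −0.03 (SE 0.39, 95% interval −0.87 to 0.82), with a sign that turned under several scalings. A processed pseudogene that shares 52.3% of its words was at 0 in all libraries.

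The mitochondrial chaperonin genes Hspd1 (HSP60) and Hspe1 (HSP10) did not move together across libraries. The window before the first Hspd1 start overlaps that of Hspe1. Hspd1 (ENSMUSG00000025980) spans 55077835 to 55088243 on the minus strand of chromosome 1 and Hspe1 (ENSMUSG00000073676) 55088132 to 55091307 on the plus strand. Hspd1 had 102, 201, 132 and 250 TPM in aged kidneys, against 266, 139, 99.5 and 167 TPM in adult kidneys (log2 fold change 0.03, SE 0.36, 95% interval −0.74 to 0.81). Hspe1 had 612, 447, 736 and 601 TPM in aged kidneys, against 371, 579, 835 and 568 TPM in adult kidneys (log2 fold change 0.06, SE 0.27, 95% interval −0.54 to 0.66). Adult replicate 1 had the highest Hspd1 and the lowest Hspe1, and adult replicate 3 the reverse. Between the pair Pearson's r was −0.76 and Spearman's rho −0.83 over the 8 libraries. Opposite movement was not particular to this pair. Pearson's r of Hspe1 was negative with every other member, from −0.88 (Hsp90ab1) to −0.10 (Hspa1b). Its rho was positive only with Hspa1b (0.21) and Hsph1 (0.14). The ratio of Hspe1 to Hspd1 was 5.997, 2.22, 5.58 and 2.41 in aged libraries, against 1.39, 4.18, 8.39 and 3.40 in adult libraries. Its mean was 4.05 ± 2.01 in aged and 4.34 ± 2.95 in adult kidneys (SD, n = 4 each), with the groups overlapping throughout. The longest annotated transcript has 2423 bases for Hspd1 and 964 for Hspe1. Libraries also differed in how gene levels departed from the mean with transcript length. Across genes the rank correlation was 0.00 to 0.16 in aged libraries, 0.07 in adult replicate 1 and between −0.19 and −0.07 in the other adult libraries, and its part in the ratio was not tested. Hspa9, the mitochondrial HSP70, had 99.0, 198, 80.6 and 171 TPM in aged kidneys, against 260, 130, 76.2 and 126 TPM in adult kidneys. Hspd1 over Hspa9 lay between 1.31 and 1.64 in the 4 libraries with Y-linked transcripts and between 1.02 and 1.07 in the 4 without. How many other gene ratios separate across this split was not computed.

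**Figure D3:**
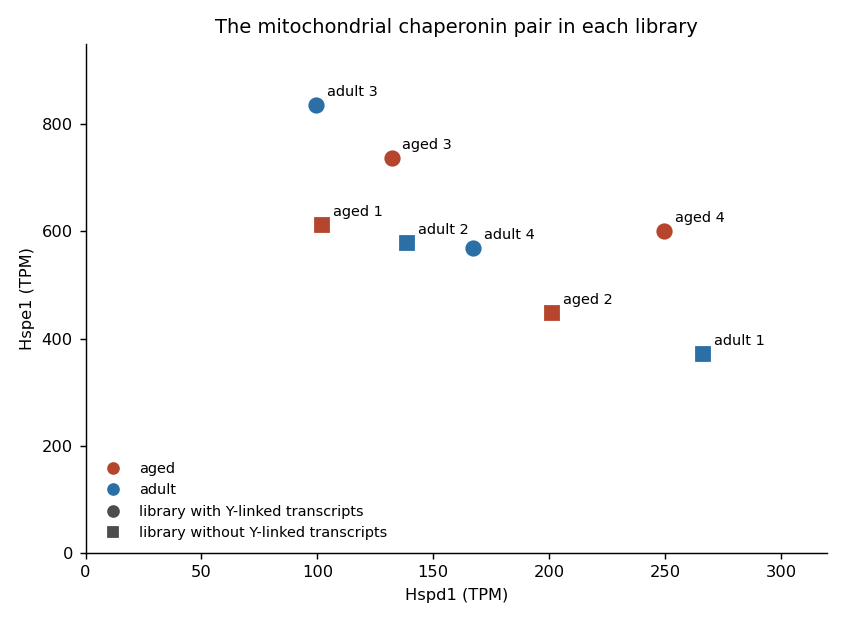
Hspe1 against Hspd1 in TPM, 1 point per library (red aged, blue adult; circles with and squares without Y-linked transcripts; labels give group and replicate). Adult replicate 3 (99.5 TPM Hspd1, 835 TPM Hspe1) and adult replicate 1 (266 and 371 TPM) mark the ends.

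Within the libraries split by Y-linked transcripts, the values of Hspa1b and Hsph1 differed between ages in replicates 3 and 4 more than in replicates 1 and 2. In the 4 libraries with Y-linked transcripts, both aged values lay above both adult ones for 4 of the 10 genes, Hspa1a, Hspa1b, Hsp90aa1 and Hsph1, against 8.95% of all genes. Both lay below for 0 of the 10, against 19.6% of all genes. For Hsp90aa1 the order rested on 107.4 TPM in aged replicate 3 against 107.1 TPM in adult replicate 4. Adult replicate 3 had the lowest value of each of the 4 genes. In the 4 libraries without, aged lay above adult for 1 (Hspa1a), against 6.17%, and below for 0, against 21.5%. The log2 fold change of Hspa1b was 1.74 with and −0.05 without Y-linked transcripts, and that of Hsph1 1.56 and 0.04. For Hspa1a it was 0.83 with and 0.20 without, and for Hsp90aa1 0.60 and −0.10. The median of the 10 was 0.26 with and −0.00457 without, beside −0.04 and −0.17 for all genes.

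The interaction of age with this split was tested by limma across all genes. It passed for 0 of the 10 genes and for 0.0339% of all genes. An unadjusted p under 0.05 was found for 2 of the 10, against 2.08% of all genes. These were Hspa1b (interaction 1.78 on the log2 scale, SE 0.56, limma unadjusted p = 0.0106, adjusted p = 1.00) and Hsph1 (1.53, SE 0.54, unadjusted p = 0.0198, adjusted p = 1.00). The interaction was positive for 7 of the 10, against 61.8% of all genes. Immediate early genes, which are induced within minutes of a stimulus, were high in aged replicates 3 and 4 and in adult replicate 1. The 10 on the list summed to 37.6, 57.9, 223 and 120 TPM in aged libraries, against 121, 41.8, 33.0 and 44.5 TPM in adult libraries. The 9 tested had a median log2 fold change of 1.77 with and −0.63 without Y-linked transcripts. Their part in the Hspa1b and Hsph1 values was not tested.

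Between the libraries with and without Y-linked transcripts, whatever the age, 0 of the 10 genes passed, against 12.4% of all genes as deposited and 5.43% with size factors. Hspb1 averaged 7.81 ± 3.39 TPM with and 13.3 ± 2.61 TPM without them (SD, n = 4 each), and its log2 fold change was −0.76 (SE 0.30, limma adjusted p = 0.0985). Hspe1 averaged 685 ± 124 TPM with and 502 ± 113 TPM without (0.46, SE 0.22, limma adjusted p = 0.144). These differences moved with the scaling, to −0.25 for Hspb1 (limma adjusted p = 0.676) and 1.03 for Hspe1 (limma adjusted p = 0.144) with size factors. The 9 kidney markers also differed across this split, with sums of 602 to 1421 TPM in the libraries with and 1320 to 3424 TPM in those lacking Y-linked transcripts. Of the 9, Umod and Slc12a1 of the thick ascending limb and Atp6v1g3 of intercalated cells were lower with Y-linked transcripts as deposited. Umod averaged 250 ± 78.3 TPM with and 1042 ± 437 TPM without (SD, n = 4 each, −2.01 on the log2 scale, limma adjusted p = 0.00676). With size factors Umod and Slc12a1 still passed and Atp6v1g3 did not (limma adjusted p = 0.684). The 5 red cell markers summed to 1116 to 2768 TPM with and 933 to 14661 TPM without, and of them Hba-a1 and Alas2 passed as lower as deposited, neither with size factors. The part of these cell type differences in the values of the 10 genes was not tested. With the split as a covariate, the lowest adjusted p for age was 0.576, for Hsph1.

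**Figure D4:**
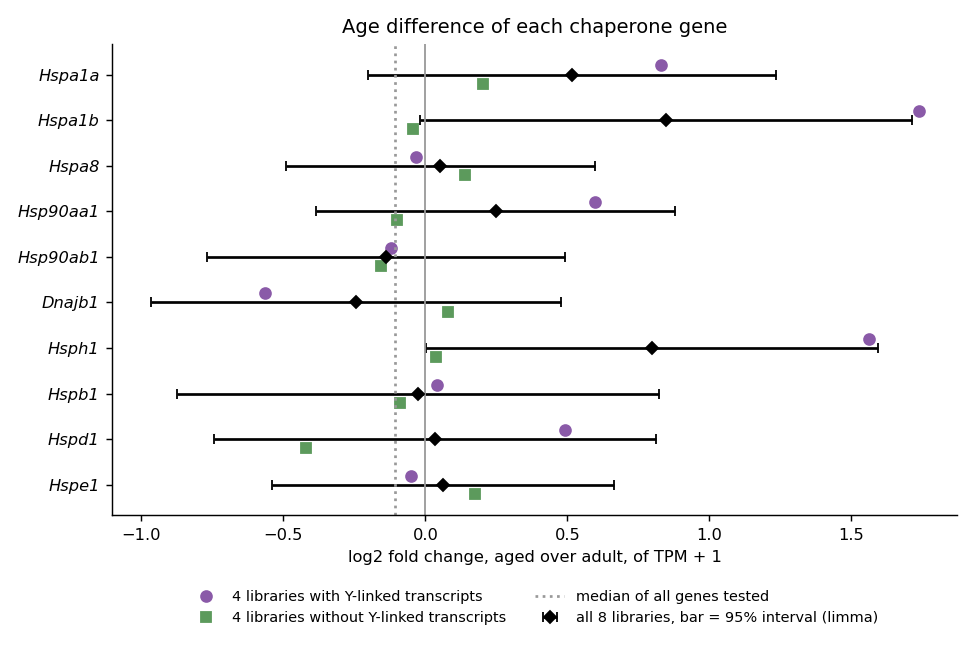
Log2 fold change of TPM + 1, aged over adult, for each chaperone gene, from all 8 libraries (black, with the 95% interval) and from the 4 libraries with (purple circles) and the 4 without Y-linked transcripts (green squares). Hspa1b and Hsph1 show the widest gap between the splits (1.74 against −0.05 and 1.56 against 0.04), and the dotted line is the median of all genes, −0.11.

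The regulators and partners of these chaperones did not pass the test either, with 0 calls in 10 lists chosen by function. Hsf1, which encodes the factor itself, had 0, 5.85e-08, 1.06 and 3.30 TPM in aged kidneys, against 1.29, 0.523, 0 and 0.489 TPM in adult kidneys. Its mean over the 8 libraries was below 1 TPM, so it was not among the 11796 genes tested. Of the 4 factors and regulators 2 were tested. Hsf2, a related factor, had a log2 fold change of 0.06 (SE 0.30) and Hsbp1, which binds the HSF1 trimer, of −0.19 (SE 0.22).

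Among other HSP70 and HSP110 genes 4 of 8 tested were positive and 4 negative (median −0.01). Hspa5, the HSP70 of the endoplasmic reticulum (BiP), averaged 204 ± 89.4 TPM in aged and 165 ± 72.8 TPM in adult kidneys (SD, n = 4 each), and its exchange factor Hyou1 13.8 ± 6.62 and 11.3 ± 5.97 TPM. Of the other HSP90 genes, Hsp90b1 (GRP94, in the endoplasmic reticulum) had a log2 fold change of 0.27 (SE 0.39) and Trap1 (in mitochondria) of −0.31 (SE 0.36), or −0.05 with adult replicate 1 left out and −0.56 with adult replicate 3 left out. Of 21 J-domain genes 10 were positive and 11 negative (median −0.02). Dnaja1, a partner of Hspa8, averaged 175 ± 58.1 TPM in aged and 126 ± 12.1 TPM in adult kidneys, and Dnajc15, of the mitochondrial inner membrane, 56.1 ± 17.6 and 83.5 ± 27.8 TPM (SD, n = 4 each). Of 4 other small heat shock genes tested 3 were positive (median 0.06), with Hspb8 at −0.16 (SE 0.32) and Hspb11 at 0.10 (SE 0.31).

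As deposited, nucleotide exchange factors were negative for 9 of 10 genes (median −0.27) and the cytosolic chaperonin TRiC, which folds actin and tubulin, for 8 of 8 (median −0.25), where 65.0% of all genes were negative, and both medians were just above 0 with mitochondrially encoded genes removed. Grpel1, the mitochondrial exchange factor, averaged 44.6 ± 5.02 TPM in aged and 59.2 ± 9.69 TPM in adult kidneys (SD, n = 4 each), with a log2 fold change of −0.39 (SE 0.23). Hspbp1, a cytosolic one, had −0.51 (SE 0.35), or −0.27 with adult replicate 1 left out and −0.82 with adult replicate 3 left out. The value was −0.12 with and −0.91 without Y-linked transcripts. The TRiC subunit Cct3 averaged 61.3 ± 8.61 TPM in aged and 82.8 ± 12.4 TPM in adult kidneys (SD, n = 4 each), and Cct4 68.2 ± 15.9 and 93.2 ± 17.6 TPM. Prefoldin, which hands clients to TRiC, was negative for 5 of 6 genes (median −0.27), with Pfdn6 at −0.46 (SE 0.27) and Pfdn1 at −0.32 (SE 0.21). With mitochondrially encoded genes removed the medians of these 3 lists were 0.00117 for the exchange factors, 0.05 for TRiC and 0.02 for prefoldin, where that of all genes was 0.15.

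The co-chaperones held the largest positive fold changes of the related lists. Of 15 tested 7 were positive and 8 negative (median −0.05). Fkbp5, an HSP90 co-chaperone of the glucocorticoid receptor and a glucocorticoid-induced gene, had 33.6, 31.4, 8.16 and 12.1 TPM in aged kidneys, against 3.70, 6.07, 6.42 and 13.7 TPM in adult kidneys. Aged replicates 1 and 2, those without Y-linked transcripts, stood above all the other libraries. Its log2 fold change was 1.31 (SE 0.48, limma unadjusted p = 0.0188, adjusted p = 1.00), with 0.07 where Y-linked transcripts were present and 2.54 where they were absent. Chordc1, an HSP90 co-chaperone induced by heat, had 10.1, 10.4, 8.14 and 9.91 TPM in aged kidneys, against 6.30, 6.12, 4.41 and 6.72 TPM in adult kidneys. Every aged library lay above every adult one. Its means were 9.65 ± 1.03 TPM in aged and 5.89 ± 1.02 TPM in adult kidneys (SD, n = 4 each), a log2 fold change of 0.64 (SE 0.24, limma unadjusted p = 0.0235, adjusted p = 1.00). It was 0.63 with and 0.64 without Y-linked transcripts. Cdc37l1, named after its values were seen, also had all aged libraries (6.67 to 9.30 TPM) above all adult ones (5.25 to 6.59 TPM), with a log2 fold change of 0.39 (SE 0.24, limma unadjusted p = 0.131, adjusted p = 1.00). These were 2 of the 15 co-chaperones tested, where 0.348% of all genes had every aged library above every adult one. Stub1, on the same list, went the other way and was not tested because its mean was below 1 TPM. It was at 0 in every aged library, against 2.41, 0.219, 2.00 and 0.500 TPM in adult kidneys.

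Of 10 other genes known as targets of heat shock factors 5 were positive and 5 negative (median 0.02). Serpinh1, the collagen chaperone HSP47, had 6.03, 9.75, 1.94 and 2.60 TPM in aged kidneys, against 19.5, 11.4, 3.43 and 10.7 TPM in adult kidneys. The groups overlapped, and the log2 fold change was −1.01 (SE 0.51, limma adjusted p = 1.00). Klf4, a transcription factor, averaged 3.94 ± 0.952 TPM in aged and 2.54 ± 0.476 TPM in adult kidneys (SD, n = 4 each).

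**Figure D5:**
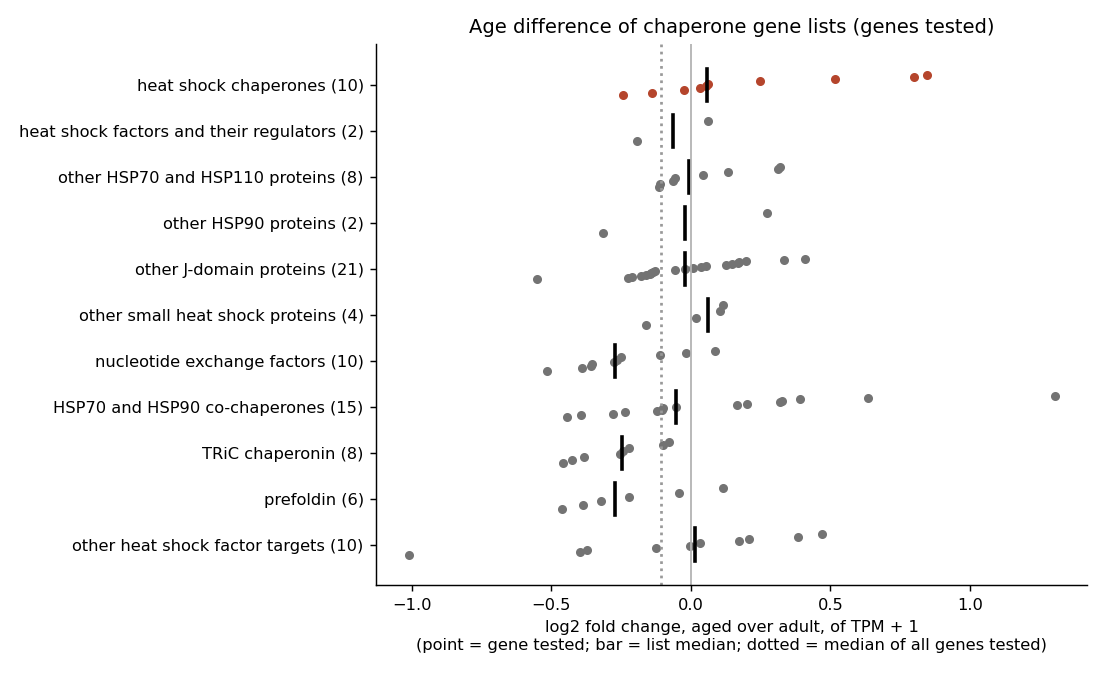
Log2 fold change of TPM + 1, aged over adult, of every tested gene in 11 chaperone lists (points; number tested in parentheses; bar, list median; dotted line, median of all genes, −0.11). The 10 heat shock chaperones (red) run from −0.24 to 0.85, TRiC lies wholly below 0 as deposited (its median was 0.05 with mitochondrially encoded genes removed), and the rightmost point is Fkbp5 at 1.31.

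The genes whose pattern over the 8 libraries was most like the mean log2(TPM + 1) of Hspa1a and Hspa1b were Cdk17, Efemp1, Tyw3, Eps8l1 and Muc1. Pearson's r was 0.96, 0.95, 0.94, 0.92 and 0.92 in that order, as a description over n = 8 libraries. All 5 shared their lowest value, in adult replicate 3. Muc1, a mucin of tubular epithelium, had 11.05, 8.06, 28.9 and 10.9 TPM in aged kidneys, against 8.83, 24.1, 1.44 and 5.79 TPM in adult kidneys. Tyw3, a tRNA-modifying enzyme, had 12.96, 11.9, 15.1 and 12.3 TPM in aged kidneys, against 8.90, 12.2, 6.07 and 8.13 TPM in adult kidneys.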

How the data were processed

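Per the labels' protocols, RNA was extracted with a Qiagen RNeasy kit and stranded libraries were made from polyadenylated RNA. The deposited values are TPM, 1 column per library. Kallisto, DESeq2 and the build GRCm38 are named in the submitters' processing notes, without versions. The step that made the TPM and its annotation are not given in those notes. TPM keeps no depth, so no counting interval was computed.

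Of 30153 gene identifiers 29732 (98.6%) matched a symbol, and those that shared one were summed, which left 7 fewer rows. Aged was compared with adult, 4 animals each, by limma 3.58.1 with an intensity trend (R 4.3.3) on log2(TPM + 1). Genes averaging at least 1 TPM over the 8 libraries were kept, with Benjamini-Hochberg adjustment over 11796 genes and a threshold of 0.05. Fold changes on this scale understate the change of low genes. The test was run on simulated data first. Libraries were split at a summed 10 TPM of Y-linked transcripts. Positions are from GENCODE release M21 on GRCm38, and sequences from RefSeq. Hspa8, Hsp90aa1 and Hsp90ab1 have no sequence printed.

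The 10 genes, the lists and the split were chosen with earlier results of these data known. Named were the 10 genes, Hsf1, per related list any gene past the threshold and otherwise the 2 with the smallest unadjusted p, and the 5 genes most like the mean of Hspa1a and Hspa1b. Hspa9, Cdc37l1 and Stub1 were named outside this rule. Markers of cell types, immediate early and Y-linked genes appear only with their levels. As alternatives the pseudocount was set to 0.1 or 5, and the filter was dropped or raised to 5 TPM. Scaling by size factors, by quantiles and after removing mitochondrially encoded genes was tried, and so was limma with no trend, robust estimation or array weights. Other fits had the replicate number as block, the Y-linked split as a covariate, each side of that split alone, each library left out, Hspa1a and Hspa1b summed, or the libraries' trends with transcript length taken out, which was added after seeing the data.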

Additional observations from a re-analysis of the deposited data

Results flagged for a closer look

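Dnajb1 in aged replicate 3 stood far below the other aged libraries, at 3.90 TPM against 10.6 to 11.8 TPM. Its gap to the nearest library exceeded Dixon's critical value at 95% for 4 samples. It was the only flag among 60 gene and group combinations tested, where chance gives about 1 in 20.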

How the results depend on the processing

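None of the 10 chaperones passed under any alternative in which it was tested, 22 for Hspa1a and Hspa1b and 24 for each of the others. The lowest limma adjusted p among the alternatives was 0.0851 for Hspa1b, 0.157 for Hsph1 and 0.683 or more for the rest. Over all genes 0 passed as reported, against 1 with array weights, 60 in the 4 libraries with and 3 in the 4 without Y-linked transcripts, and 0 to 2 with a library left out. The members' median (0.06) was 0.44 with quantile normalization and between 0.00 and 0.21 with a library left out. The median of the heat shock factor list was 0.31 with mitochondrially encoded genes removed, and 0.54 with and −0.26 without Y-linked transcripts. In these settings the 1 TPM filter was applied anew, so the genes behind a median can differ. Hsf1 averaged 1.21 TPM in the libraries with Y-linked transcripts and joined the list there. For Hsf2 and Hsbp1 alone the median was 0.14 with and −0.26 without Y-linked transcripts. The median of prefoldin was −0.00628 with quantile normalization, 0.0240 with mitochondrially encoded genes removed, −0.10 with the length trend removed, and −0.55 with and −0.0389 without Y-linked transcripts. The interaction passed for 4 genes as reported and 2 with size factors.

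Signs turned for Hspb1 (0.0762 with size factors, 0.0868 quantile, 0.26 mitochondrially encoded genes removed, 0.15 length trend removed, 0.0400 with Y-linked transcripts), Hsp90ab1 (0.17 quantile, 0.16 mitochondrially encoded genes removed, 0.0349 length trend removed), Hsbp1 (0.11 quantile, 0.11 mitochondrially encoded genes removed), Dnajb1 (0.0180) and Hspb8 (0.0702, both mitochondrially encoded genes removed). They also turned for Hspa8 (−0.0858 array weights, −0.0347 with Y-linked transcripts) and Hspe1 (−0.0508 with them). Without Y-linked transcripts they turned for Hspa1b (−0.0450), Hsp90aa1 (−0.10), Hspd1 (−0.42), Hsf2 (−0.42) and Dnajb1 (0.0784). With a library left out the ranges were −0.31 to 0.0355 for Hsp90ab1, −0.39 to 0.20 for Hspb1, −0.14 to 0.25 for Hspe1, −0.0563 to 0.17 for Hspa8, −0.18 to 0.29 for Hspd1, −0.38 to 0.0800 for Dnajb1, −0.12 to 0.23 for Hsf2, −0.0359 to 0.58 for Hyou1, −0.0153 to 0.57 for Hsp90b1, −0.40 to 0.0123 for Hspb8 and −0.0687 to 0.34 for Hspb11. Without a turn of sign they were 0.02 to 0.56 for Hspa5, 0.23 to 0.58 for Dnaja1, −0.25 to −0.10 for Hsbp1 and −0.56 to −0.29 for Cct4. Interaction signs turned for Hsp90ab1 (−0.12 with size factors), Hspa8 (0.10 quantile, 0.0258 mitochondrially encoded genes removed) and Hspb1 (−0.0431 quantile). The causes were not tested.

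Same-numbered libraries had deviations correlated at 0.04, 0.18, 0.49 and 0.42. Aged replicates 3 and 4 correlated best with their own number, aged replicate 1 with adult replicate 2 (0.41) and aged replicate 2 with adult replicate 1 (0.57). These deviations also carry the Y-linked split, so they cannot tell whether the numbers pair the animals. With the replicate number as a block 0 genes passed. With 4 animals a group, unknown read depth and a split of the libraries that the labels do not name, the 95% intervals of single genes are wide, −0.97 to 0.48 for Dnajb1 and −0.02 to 1.71 for Hspa1b among them.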
